A study of Mus musculus with 4 samples.

Results

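The 10 genes described here encode the 5 subunits of the transcription factor NF-kB (Nfkb1, Nfkb2, Rel, Rela and Relb), 3 proteins of the inhibitory IkB family (Nfkbia, Nfkbiz and Bcl3) and 2 inhibitors that NF-kB itself induces (Tnfaip3 and Birc3). They were listed by name and role, and all 10 were found among the 54532 genes of the deposited RNA sequencing table and had values high enough to be tested. The table covers 4 libraries of total RNA. In 2 libraries the cells had received 0.5 µM of a compound named only as R (the unit is written "um"), and in the other 2, the vehicle libraries, DMSO. Both groups were CB6F1 mouse cells that the labels call MSCs, obtained by digestion of bone marrow that had not been fractionated and then grown in culture, and both carry the term aGVHD in their titles. Nothing in the labels tells what R is, how old the animals were, how long the cells were treated, or whether the replicates of a group came from separate animals or cultures. The p-values below therefore measure the spread between these libraries, which may be technical.

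NF-kB is a dimer of Rel family proteins. Rela, Rel and Relb carry a domain that activates transcription, whereas Nfkb1 and Nfkb2 encode precursors that are processed to p50 and p52, which lack it. In resting cells IkB proteins such as the product of Nfkbia hold the dimers in the cytoplasm, and receptors for tumour necrosis factor, interleukin 1 and microbial products trigger IkB kinase, which marks IkB for destruction. The freed dimers then switch on inflammatory genes together with their own brakes, among them Nfkbia and Tnfaip3, and in macrophages this loop shapes much of the early inflammatory response.

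In GENCODE M21 on GRCm38, Bcl3 (ENSMUSG00000053175) lies at chr7:19808462-19822770, Nfkbia (ENSMUSG00000021025) at chr12:55489410-55492647 and Birc3 at chr9:7848699-7873186. Their transcription is itself under NF-kB control in several cases, so the bases upstream of their starts are shown for the 3 members with the lowest fold changes and, for contrast, for Nfkb2. RefSeq windows on GRCm38.p6 were at hand for 7 of the 10 genes (10 start sites in all), and not for Nfkb1, Relb and Nfkbiz. The windows run from 250 bases upstream of the start to the base before it, in the direction of the gene. They lie at chr7:19822756-19823005 for Bcl3, chr12:55492648-55492897 for Nfkbia and chr9:7873171-7873420 for Birc3, each on the minus strand, and at chr19:46304487-46304736 on the plus strand for the first of 3 starts of Nfkb2. Capitals mark each match on either strand to GGGNNNNNCC, a loose form of the NF-kB motif, and overlapping matches run together.
Bcl3: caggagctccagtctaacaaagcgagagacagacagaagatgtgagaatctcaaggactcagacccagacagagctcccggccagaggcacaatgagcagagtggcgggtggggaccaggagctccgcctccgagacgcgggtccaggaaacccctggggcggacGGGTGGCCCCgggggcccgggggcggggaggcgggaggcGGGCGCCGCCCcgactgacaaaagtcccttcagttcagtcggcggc
Nfkbia: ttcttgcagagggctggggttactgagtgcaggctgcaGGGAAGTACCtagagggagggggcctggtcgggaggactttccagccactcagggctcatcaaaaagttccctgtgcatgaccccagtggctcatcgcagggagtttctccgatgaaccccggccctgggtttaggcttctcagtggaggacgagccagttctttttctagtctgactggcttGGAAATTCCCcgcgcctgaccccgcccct
Birc3: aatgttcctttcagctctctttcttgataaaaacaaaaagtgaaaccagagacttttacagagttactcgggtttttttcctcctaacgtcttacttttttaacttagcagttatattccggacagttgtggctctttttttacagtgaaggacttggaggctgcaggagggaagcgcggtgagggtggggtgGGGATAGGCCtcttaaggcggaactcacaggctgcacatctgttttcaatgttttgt
Nfkb2: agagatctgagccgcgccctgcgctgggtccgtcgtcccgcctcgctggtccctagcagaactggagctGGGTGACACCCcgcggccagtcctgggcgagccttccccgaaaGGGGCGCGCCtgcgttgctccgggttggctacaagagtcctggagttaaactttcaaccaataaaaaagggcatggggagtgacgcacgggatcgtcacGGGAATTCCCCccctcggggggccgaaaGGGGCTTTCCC

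The loose motif was found in 10 of the 10 windows and in 45.8% of all 32851 RefSeq windows of the same length, so its presence says little by itself. A narrower form, GGGNNTTNCC, which is a subset of the first and was chosen after the sites had been seen, matched in 5 of the 10 windows, from 4 genes (Nfkb2, Nfkbia, Rel and Tnfaip3), and in 4.1% of all windows. Since the form was picked from these sites and windows of a gene are not independent, nothing is read from that difference. In Nfkbia the matching stretch reads GGAAATTCCC in the direction of the gene, 29 to 20 bases upstream of the start, and the motif is on the opposite strand, as GGGAATTTCC. In Bcl3, Birc3 and Rela this form was not found within these windows. The STAT motif TTCNNNGAA was present in 1 of the 10 windows, the Nfkb2 window shown, against 7.0% of all windows, and the interferon response motif GAAANNGAAA in 0 of 10 against 3.0%. These are matches of letters and not measured binding.

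The comparison of R with vehicle asked how the NF-kB machinery differed at the RNA level. Bcl3 fell in R, and its mean in vehicle was 2.14 times that in R. Nfkbia and Birc3 were lower in both R libraries than in either vehicle library but did not pass the test, and the log2 fold changes of the 5 subunits ran from -0.32 to 0.11, none of them called. FPKM corrects the fragments of a gene for its length and for the depth of the library, so levels of different genes can be set side by side. Values were tested as log2(FPKM + 1) with limma in one fit over 12176 genes, with Benjamini-Hochberg adjustment over all of them and a threshold of 0.05. Of the 10 genes 1 was called lower and 0 were called higher, where 1.37% of all tested genes were called lower and 0.345% higher (167 and 42 genes, or 124 and 58 on a TPM scale, which sets the sum of each library equal). An unadjusted p under 0.05 was found for 3 of the 10, each lower in R, and for 15.98% of all tested genes. The median log2 fold change of the 10 genes was -0.20, and over all tested genes it was 0.00. The groups did not overlap in 6 genes with R lower and in 1 with R higher, where 25.2% and 22.7% of all tested genes did so. On a TPM scale the members without overlap were 4 lower and 1 higher in R. The matching share of all tested genes was not computed on that scale, so nothing is read from these counts.

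**Figure D1:**
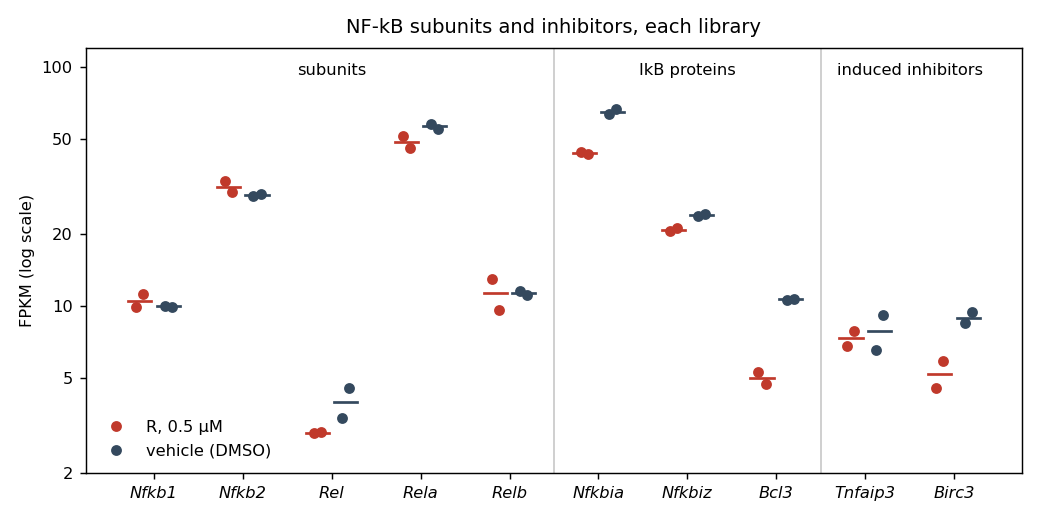
FPKM (log scale) of the 10 genes in each library, with R in red left of vehicle in dark blue. Points are libraries (n = 2 each) and bars are group means; Bcl3 sits at 5.28 and 4.69 FPKM in R and at 10.6 and 10.7 FPKM in vehicle.

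Among the subunits, Rela, the main activating subunit of the canonical pathway, was the most abundant. It stood at 51.4 and 45.5 FPKM in R and at 57.5 and 54.8 FPKM in vehicle, lower in R with no overlap. Its log2 fold change was -0.21 (95% interval -0.54 to 0.11), which was not called (adjusted p = 0.506 by limma with Benjamini-Hochberg), and on a TPM scale it was -0.08. Nfkb2, the precursor of p52 and a central component of the non-canonical pathway, had 33.1 and 29.7 FPKM in R and 28.7 and 29.2 FPKM in vehicle. It was the 1 gene of the 10 with both R libraries above both vehicle libraries, and its log2 fold change of 0.11 (interval -0.19 to 0.42) was not called. In FPKM that margin was smaller than the gap between the R libraries. On the TPM scale it was wider, with 99.3 and 103.5 TPM in R and 83.0 and 87.7 TPM in vehicle (log2 fold change 0.25), again without a call.

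Nfkb1, the precursor of p50, measured 9.85 and 11.2 FPKM in R and 9.99 and 9.90 FPKM in vehicle, so the groups overlapped. Relb, the partner of p52 in the non-canonical pathway, measured 12.98 and 9.58 FPKM in R, and its vehicle values of 11.5 and 11.1 FPKM lay between them. The fold changes of both were close to 0 on the log2 scale, at 0.07 for Nfkb1 and -0.02 for Relb, and that of Relb changed sign with the scaling, to 0.11 on a TPM scale, and was 0.18 without R replicate 2 and 0.01 without vehicle replicate 1. That of Nfkb1 was 0.20 on the TPM scale, 0.15 without R replicate 1 and -0.01 without R replicate 2. Rel, known for its part in lymphoid and myeloid cells, was the least abundant of the 10 genes. Its values were 2.93 and 2.95 FPKM in R and 3.39 and 4.53 FPKM in vehicle, with a log2 fold change of -0.32 (interval -0.71 to 0.06; limma, Benjamini-Hochberg adjusted p = 0.392). It was -0.49 without vehicle replicate 1 and -0.15 without vehicle replicate 2, and the groups overlapped on the TPM scale.

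The summed level of the 5 subunits was 110.3 and 98.9 FPKM in R and 111.1 and 109.5 FPKM in vehicle. Rela made up 46.7 and 46.0% of this sum in R and 51.8 and 50.02% in vehicle. The share of Nfkb2 was 30.0 and 30.1% in R, against 25.8 and 26.7% in vehicle. Rel held 2.66 and 2.99% in R and 3.05 and 4.14% in vehicle. The shares of Rela, Nfkb2 and Rel thus did not overlap between groups, and those of Nfkb1 and Relb did. Since the shares add up to the whole, they are not independent of each other. These shares depend on no scaling between libraries and were not tested.

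The IkB genes include the member that was called. Bcl3 encodes a nuclear IkB protein that binds dimers of p50 or p52 and can raise or lower transcription of their targets. It stood at 5.28 and 4.69 FPKM in R, against 10.6 and 10.7 FPKM in vehicle, which corresponds to 252 and 210 recovered reads in R and to 463 and 476 in vehicle. The 2 libraries of each group lay close together and far from the other group. Mean FPKM with SD (n = 2 each) was 4.98 ± 0.414 in R against 10.7 ± 0.0800 in vehicle, and the log2 fold change was -0.96 (SE 0.121; limma, Benjamini-Hochberg adjusted p = 0.0231). Of 13 alternative analyses 12 kept the call, 4 of them fits with a lone library in 1 arm, which adds nothing to the spread. In the fits that left out a vehicle library the spread was pooled over all genes. The spread of Bcl3 itself had no weight in those calls. It was lost without a filter on low values (adjusted p = 0.132), when 24958 genes were tested.

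Nfkbia encodes IkB alpha, the classical cytoplasmic inhibitor and the fastest of the feedback brakes. It had 44.0 and 43.1 FPKM in R and 63.2 and 66.3 FPKM in vehicle. Both R libraries were lower than both vehicle libraries, by far more than the libraries of a group differed. Mean FPKM with SD (n = 2 each) was 43.6 ± 0.640 in R against 64.7 ± 2.18 in vehicle, and the log2 fold change was -0.56 (SE 0.122, interval -0.86 to -0.26), with an unadjusted p = 0.004 that did not pass over all genes (limma, Benjamini-Hochberg adjusted p = 0.101). With 1 library left out, the log2 fold change was -0.575 without R replicate 1 and -0.5458 without R replicate 2. It was -0.5942 without vehicle replicate 1 and -0.5266 without vehicle replicate 2. In each of these limma fits the lone library adds nothing to the spread. Without a vehicle library the spread was pooled over all genes, so that of Nfkbia itself had no weight.

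Nfkbiz encodes IkB zeta, a nuclear IkB protein that macrophages need to induce a second wave of inflammatory genes. It had 20.5 and 21.1 FPKM in R and 23.6 and 24.2 FPKM in vehicle. The groups did not overlap, but the difference was small, with a log2 fold change of -0.19 (interval -0.47 to 0.09), and was not called. On the TPM scale it was -0.06, and the groups overlapped, at 61.5 and 73.5 TPM in R and 68.3 and 72.5 TPM in vehicle.

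**Figure D2:**
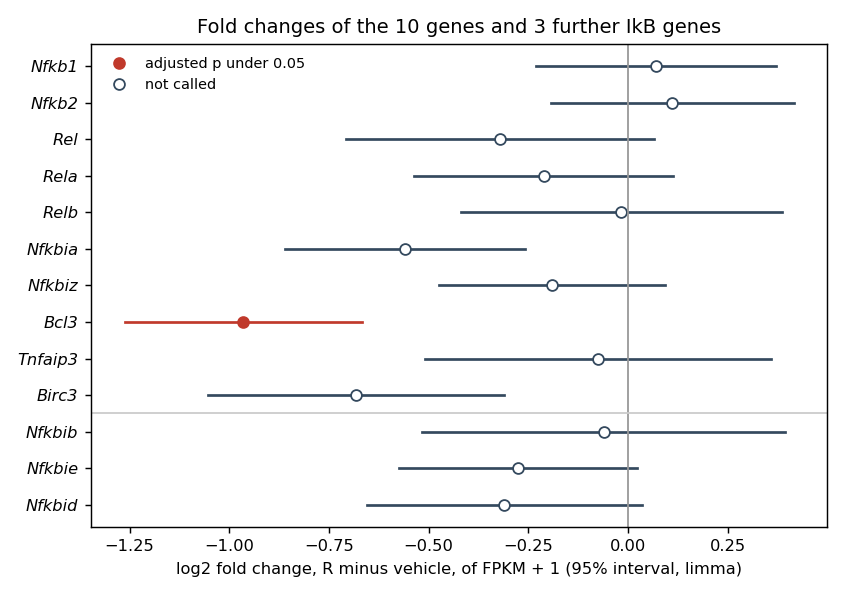
Log2 fold change (R minus vehicle, of FPKM + 1) with its 95% interval from limma for the 10 genes and, under the grey line, for 3 further IkB genes. Filled red marks an adjusted p under 0.05, which Bcl3 alone reached among these 13 genes; the intervals of Nfkbia and Birc3 also lie below 0.

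The induced inhibitors differed from each other. Birc3 encodes cIAP2, a ubiquitin ligase of tumour necrosis factor receptor complexes that also helps to keep the non-canonical kinase NIK at a low level. It stood at 4.54 and 5.87 FPKM in R, against 8.44 and 9.38 FPKM in vehicle, so that both R libraries were lower, with mean FPKM and SD (n = 2 each) of 5.21 ± 0.940 in R against 8.91 ± 0.662 in vehicle. The log2 fold change was -0.68 (SE 0.151, interval -1.05 to -0.31; limma, Benjamini-Hochberg adjusted p = 0.103). With 1 library left out, the log2 fold change of Birc3 was -0.527 without R replicate 1 and -0.84 without R replicate 2. It was -0.7503 without vehicle replicate 1 and -0.6139 without vehicle replicate 2. Tnfaip3 encodes A20, a ubiquitin-editing enzyme that shuts off signalling from these receptors. It had 6.80 and 7.83 FPKM in R, within the range of its vehicle values of 6.55 and 9.13 FPKM. Its log2 fold change of -0.08 had an interval of -0.51 to 0.36, which leaves room for a difference in either direction, and its sign turned on a TPM scale, to 0.05, and without R replicate 1 or vehicle replicate 2.

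The mean levels followed these orders. In R it ran Rela, Nfkbia, Nfkb2, Nfkbiz, Relb, Nfkb1, Tnfaip3, Birc3, Bcl3 and Rel, and in vehicle it ran Nfkbia, Rela, Nfkb2, Nfkbiz, Relb, Bcl3, Nfkb1, Birc3, Tnfaip3 and Rel. Rela stood above Nfkbia in both R libraries and below it in both vehicle libraries. Bcl3 stood 9th of the 10 in R and 6th in vehicle. Relb and Nfkb1 could not be told apart in R, nor Birc3 and Bcl3, since their library values overlapped. In vehicle the values of Birc3 and Tnfaip3 overlapped.

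Ratios of 2 genes within a library cancel any scaling between libraries, and 8 were formed after the values had been seen, with no test. Both R libraries were below both vehicle libraries in 5 of them and above in 1, Tnfaip3 to Nfkbia, and the groups overlapped for Rel to Rela and Nfkb2 to Nfkb1. Several of the ratios share Nfkbia or Bcl3, so they are not independent. How often ratios of other gene pairs do not overlap was not computed, and nothing is read from these counts. The ratio of Bcl3 to Nfkb2 was 0.160 and 0.158 in R and 0.370 and 0.367 in vehicle. Against Nfkb1 the ratio was 0.536 and 0.420 in R and 1.06 and 1.08 in vehicle, so that Bcl3 was lower relative to both of the subunit genes whose products it binds. The ratio of Nfkbia to Rela, inhibitor to subunit, was 0.856 and 0.948 in R and 1.10 and 1.21 in vehicle. Birc3 relative to its paralogue Birc2, which encodes cIAP1, was at 0.627 and 0.849 in R and at 1.17 and 1.34 in vehicle. The fifth ratio with R lower was that of Nfkbia to Nfkbib, at 2.71 and 3.85 in R and 4.47 and 4.68 in vehicle, and Tnfaip3 to Nfkbia stood at 0.154 and 0.182 in R and 0.104 and 0.138 in vehicle. Birc2 itself was at 7.24 and 6.92 FPKM in R and at 7.23 and 7.01 FPKM in vehicle.

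**Figure D3:**
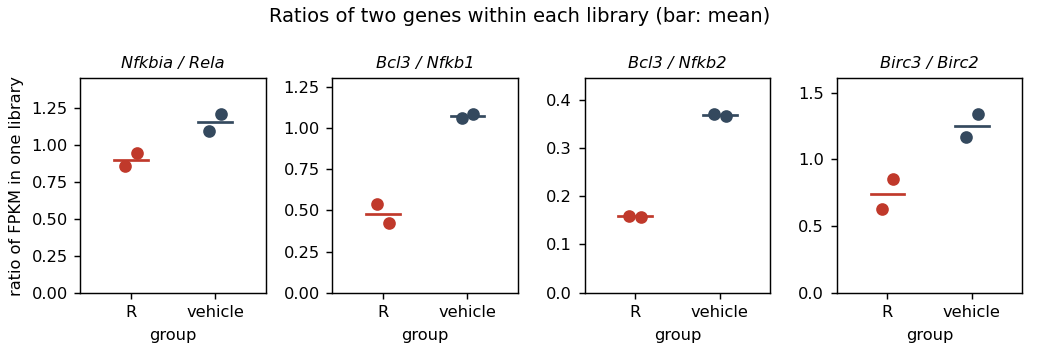
Ratios of FPKM of 2 genes within each library, R in red left of vehicle in dark blue, with points for libraries (n = 2 each) and bars for means, on linear axes from 0. The R libraries lie below the vehicle libraries in all 4 panels, by the widest margin relative to the spread for Bcl3 over Nfkb2. The pairs were chosen after the values had been seen. Not drawn are Rel to Rela and Nfkb2 to Nfkb1, whose groups overlapped, Tnfaip3 to Nfkbia, higher in R, and Nfkbia to Nfkbib, lower in R.

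Some of these values share reads or cells with other sources. Bcl3 overlaps the antisense genes Gm16174, at 1.29 and 1.10 FPKM in R and 1.83 and 0.970 FPKM in vehicle, and Gm16175, at 0 and 0.223 FPKM in R and 0.914 and 0.674 FPKM in vehicle. Nfkb2 overlaps Psd on the other strand, at 2.25 and 1.79 FPKM in R and 1.96 and 1.81 FPKM in vehicle. Nfkb1 overlaps Gm43430 on the same strand, at 0 and 0.0567 FPKM in R and 0.0582 and 0.0858 FPKM in vehicle. The labels do not say that counting used strand, so reads in the shared stretches cannot be assigned.

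Macrophage transcripts were abundant in all 4 libraries, and the listed markers had lower means in R. The summed level of 14 macrophage markers was 15831 and 12142 FPKM in R and 23197 and 20756 FPKM in vehicle. The R mean was thus 0.636 times the vehicle mean. Log2 fold changes were below 0 in 14 of 14, and in 49.98% of all tested genes. Of the 14, 3 were called lower (Fcgr1, Itgam and Ctss), as were 1.37% of all tested genes. Lyz2, Cd68, Csf1r and Adgre1 were not called (limma, Benjamini-Hochberg adjusted p = 0.321, 0.157, 0.496 and 0.74). Lyz2 held the most of that macrophage sum, at 8891 and 7061 FPKM in R and 14569 and 12540 FPKM in vehicle. The R over vehicle ratio of Lyz2 was 0.589, so the ratio of the sums largely follows this gene. Cd68 was at 492 and 406 FPKM in R and 753 and 691 FPKM in vehicle. Csf1r and Adgre1, also defining macrophage markers, differed less. Csf1r was at 433 and 418 FPKM in R against 520 and 501 FPKM in vehicle. Adgre1 was at 215 and 232 FPKM in R against 235 and 253 FPKM in vehicle. The sum of 12 stromal markers was 1884 and 1928 FPKM in R and 1460 and 1445 FPKM in vehicle, and 8 of the 10 tested had log2 fold changes above 0 (median 0.29), with 0 called and 3 (Pdgfrb, Col1a1 and Col1a2) at an unadjusted p under 0.05. Col1a1 held the most of that sum, at 852 and 795 FPKM in R and 532 and 526 FPKM in vehicle. Cxcl12 lay at 462 to 517 FPKM over the 4 libraries and Lepr at 0.316 to 0.690 FPKM. Ly6g and Mpo of neutrophils, Cd3e of lymphocytes and Hbb-bs of erythroid cells were at 0 in every library, and the summed markers of these cell types were at most 2.20, 0.519 and 0.386 FPKM. Those of endothelial cells summed to 4.26 and 6.15 FPKM in R and 5.46 and 5.24 FPKM in vehicle. The R over vehicle ratios of Bcl3, Birc3 and Nfkbia were 0.467, 0.584 and 0.673. The part of the macrophage signal in these differences was not tested, and in bulk RNA fewer cells of a type and less RNA per cell cannot be told apart.

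The rest of the pathway was followed in 7 lists of 91 genes by role, of which 76 were tested. In these, 4 genes were called lower and 1 higher, beside 1.37% and 0.345% of all tested genes, and the median log2 fold change was -0.18. The calls fell on a ligand and on target genes, and limma called 0 of the tested receptors, adaptors, kinases, other IkB proteins and other negative regulators, in which 2, 2, 1, 0 and 4 genes had an unadjusted p under 0.05, as did 15.98% of all tested genes.

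Of the ligands, 4 of 10 were tested and 1 was called. Il1b, which encodes interleukin 1 beta, had 2.74 and 3.19 FPKM in R and 7.05 and 6.23 FPKM in vehicle. Its log2 fold change was -0.94 (limma, Benjamini-Hochberg adjusted p = 0.036), and -0.8674 when vehicle replicate 1 was left out. On a TPM scale Il1b was no longer called (limma adjusted p = 0.0919). Il18, of the same cytokine family, had 5.78 and 5.58 FPKM in R and 8.74 and 6.49 FPKM in vehicle and was not called. Tnf, which encodes tumour necrosis factor, was added here after its values were seen, at 23.0 and 16.9 FPKM in R and 18.6 and 17.1 FPKM in vehicle. The groups overlapped for Tnf and did not for Il1b and Il18.

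Among 9 tested receptors and 16 adaptors the values with the smallest p were all lower in R. Tlr2, a receptor for bacterial lipoproteins, was at 48.0 and 43.7 FPKM in R and 62.8 and 70.5 FPKM in vehicle, and Tlr3, a receptor for double-stranded RNA, at 1.47 and 2.04 FPKM in R and 2.59 and 3.10 FPKM in vehicle. Myd88, the adaptor that most Toll-like receptors share, was at 17.9 and 14.4 FPKM in R and 22.2 and 22.8 FPKM in vehicle, and Bcl10, an adaptor of antigen receptor signalling, at 14.6 and 14.8 FPKM in R and 18.8 and 18.4 FPKM in vehicle. None of these 4 was called, the adjusted p of limma lying between 0.138 for Tlr2 and 0.254 for Bcl10. The median log2 fold changes of both lists were -0.14 for receptors and -0.10 for adaptors.

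The 10 kinase genes had a median log2 fold change of -0.07. Ikbke, an IkB kinase relative that acts in antiviral signalling, was at 11.4 and 10.5 FPKM in R and 16.8 and 15.5 FPKM in vehicle, without a call (limma, Benjamini-Hochberg adjusted p = 0.116), and Tab2, which links receptor complexes to the kinase encoded by Map3k7, at 25.3 and 31.7 FPKM in R and 33.5 and 36.1 FPKM in vehicle. The 3 other IkB genes had log2 fold changes of -0.06 for Nfkbib, -0.28 for Nfkbie and -0.31 for Nfkbid. Nfkbie, a cytoplasmic inhibitor, was at 7.15 and 7.13 FPKM in R and 9.37 and 8.36 FPKM in vehicle, and Nfkbid, a nuclear one, at 28.7 and 24.9 FPKM in R and 35.6 and 31.2 FPKM in vehicle. Neither group pair overlapped and neither gene was called.

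Genes listed as other negative regulators had fold changes of both signs, with 9 of 12 below 0 and a median of -0.06. These numbers include Sharpin (log2 fold change -0.46), which is not established as a brake on NF-kB. Whether each listed gene acts as a brake in these cells was not tested. Irak3, a brake on Toll-like receptor signalling in macrophages, was at 5.10 and 5.56 FPKM in R and 9.02 and 9.28 FPKM in vehicle, close to the threshold but not called (log2 fold change -0.68; limma, Benjamini-Hochberg adjusted p = 0.0569). Pdlim2, which promotes the breakdown of nuclear Rela, was at 16.4 and 12.9 FPKM in R and 10.2 and 9.12 FPKM in vehicle, without a call (log2 fold change 0.55). Both genes had groups that did not overlap, in opposite directions.

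Of 22 tested target genes, 3 were called lower and 1 higher, beside 1.37% and 0.345% of all tested genes. The median log2 fold change was -0.37, and 17 of the 22 lay below 0, as did 49.98% of all tested genes. An unadjusted limma p under 0.05, in either direction, was found for 13 of the 22 and for 15.98% of all tested genes. The groups did not overlap in 15 with R lower and 3 with R higher, beside 25.2% and 22.7% of all tested genes. The list was chosen with earlier results of these data known and was not tested as a set. Cxcl5, a neutrophil chemokine, fell to 2.61 and 2.55 FPKM in R, against 8.95 and 10.7 FPKM in vehicle (log2 fold change -1.59; limma, Benjamini-Hochberg adjusted p = 0.00728). Saa3, an acute phase protein, was at 0.577 and 0.509 FPKM in R, against 4.07 and 2.87 FPKM in vehicle (log2 fold change -1.52), and Cxcl10, a chemokine that interferons also induce, at 1.43 and 1.28 FPKM in R, against 3.42 and 3.42 FPKM in vehicle (log2 fold change -0.91). Cxcl10 was no longer called on a TPM scale (limma adjusted p = 0.0763). With vehicle replicate 1 left out its log2 fold change was -0.9097. Mmp9, a matrix protease of macrophages and osteoclasts, rose to 9.11 and 9.51 FPKM in R, against 3.33 and 3.94 FPKM in vehicle (log2 fold change 1.16; limma, Benjamini-Hochberg adjusted p = 0.0155). Several genes of this list are also known to respond to interferons, and the macrophage markers were lower in the same R libraries (median log2 fold change -0.64), a part in the result that was not tested.

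**Figure D4:**
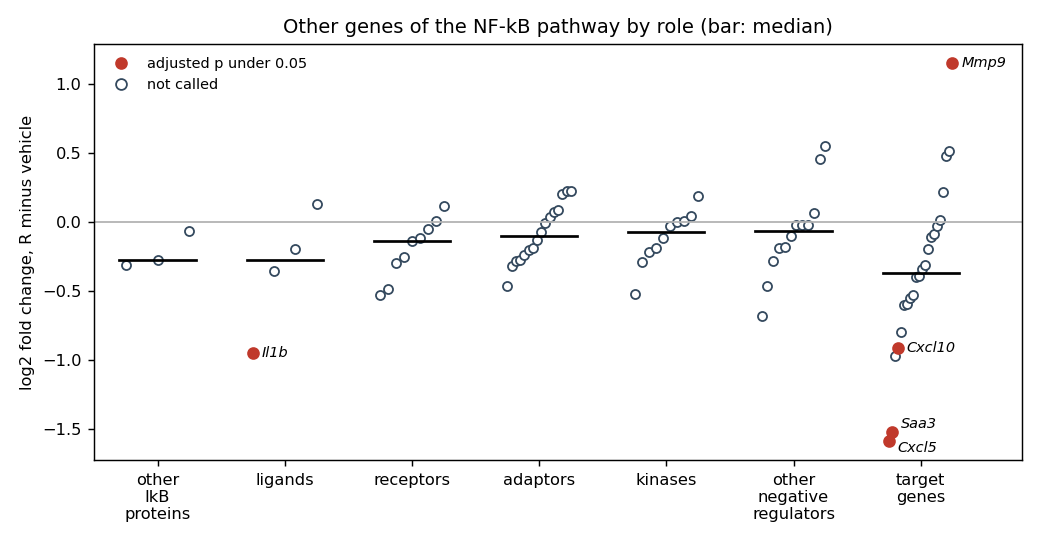
Log2 fold change (R minus vehicle, of FPKM + 1) of 76 tested genes of the wider NF-kB pathway, grouped by role, with bars for medians. Filled red marks an adjusted p under 0.05, reached by Il1b among ligands and by Cxcl5, Saa3, Cxcl10 and Mmp9 among target genes.

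Over the 13 alternative analyses the log2 fold change of Bcl3 stayed between -1.09 and -0.89, that of Nfkbia between -0.59 and -0.43 and that of Birc3 between -0.84 and -0.53. Those of Rel, Rela and Nfkbiz were below 0 and that of Nfkb2 above 0 in each alternative that gave a value, and those of Nfkb1, Relb and Tnfaip3 took both signs. On the TPM scale the median of all tested genes moved to 0.13, and the fold change of Bcl3 was -0.92. The number of the 10 genes called lower was 2 without R replicate 1 and 3 without R replicate 2.

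**Figure D5:**
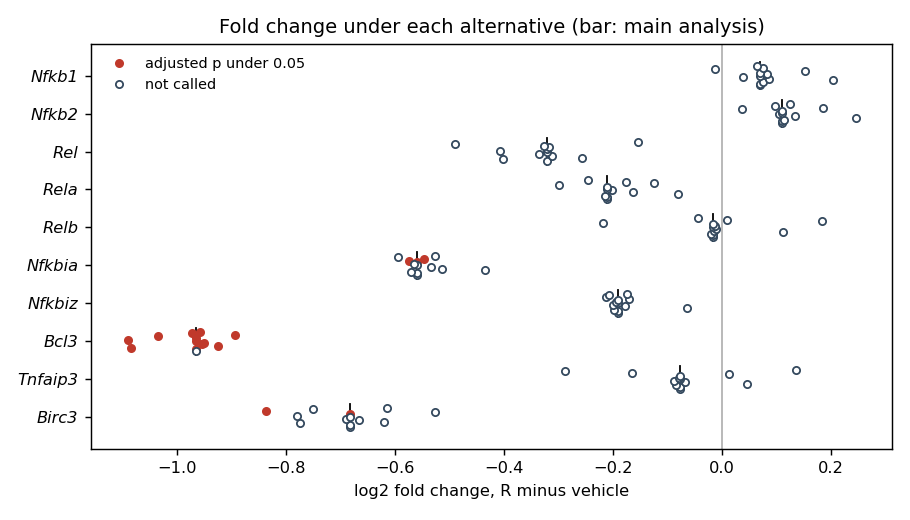
Log2 fold change (R minus vehicle) of each of the 10 genes under up to 13 alternatives (points; filled red where the adjusted p is under 0.05) and in the main analysis (black bar). Points of Bcl3, Nfkbia and Birc3 lie below 0 throughout, and 12 of 13 points are red for Bcl3.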

How the data were processed

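The deposited table, made by the authors, holds 1 FPKM value per gene and library, per the file headers. GRCm38, mm10 and edgeR 3.18.1 are named per the submitters' processing notes without a role. As to aligner, counter, annotation and filters, they are not given in the sources read for this work. Gene identifiers were matched to GENCODE M21 (GRCm38), 54495 of 54532, and 10 empty columns were not used. FPKM times gene length gave whole reads, within 0.02 of a read, for 96.3 to 96.4% of values above 0, and 16534440 to 18085183 reads per library over genes whole in every library. Rela and Nfkb2 were not whole. At 1 FPKM a 2 kb gene had 35.3 to 38.6 reads.

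R and vehicle (n = 2 each) were compared with limma 3.58.1 (R 4.3.3, eBayes with a variance trend, 2 residual degrees of freedom) on log2(FPKM + 1), for genes averaging 1 FPKM or more over the 4 libraries. Such fold changes understate the change of low genes. The p-values were adjusted by Benjamini-Hochberg over all 12176 tested genes. The members, lists and tests were chosen with earlier results of these data known, so no list was tested as a set. All 10 members are named. Of each wider list the called genes are named, or the 2 with the smallest p where fewer than 2 were called. Fixed defining markers are given as counts and sums, with examples. Alternatives covered the filter, pseudocount, scaling, a gene length trend, the variance trend, voom with TMM factors on recovered reads, a replicate block and leaving out each library.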

Additional observations from a re-analysis of the deposited data

How the results depend on the processing

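Bcl3 was called lower in 12 of 13 alternatives. With no filter on low values, limma called 0 genes lower and 0 higher of 24958, with 2767 at an unadjusted p under 0.05, and so 0 of the 10 members and 0 and 0 of the wider lists. Removing a gene length trend called 349 genes lower and 223 higher, with 8 of the wider lists lower. Voom called 222 lower and 77 higher, and TPM 124 and 58, against 167 and 42 in the main analysis. On TPM and with a filter at a mean of 5 FPKM, 2 genes of the wider lists were called lower in each. On TPM the log2 fold changes of Relb and Tnfaip3 turned to 0.11 and 0.0469. The cause of these moves was not tested.

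Leaving out 1 library gave 183 to 698 genes lower and 100 to 447 higher, 1 to 3 members lower, and 2 to 14 lower and 1 to 2 higher in the wider lists. In the fits without a vehicle library the spread was pooled over all genes, so that of a single gene had no weight. Over the fits that left out 1 library, the log2 fold changes ran from -0.0122 to 0.15 for Nfkb1. They ran from -0.22 to 0.18 for Relb and from -0.29 to 0.14 for Tnfaip3. The replicate numbers are shared by the groups, but nothing says that they pair the libraries. The correlation of the replicate differences across genes was 0.353. With the replicate block 1009 genes were called lower and 891 higher, 3 members lower (Bcl3, Nfkbia and Birc3), and 17 lower and 5 higher in the wider lists, on 1 residual degree of freedom. That limma fit added 91.3 degrees of freedom pooled across genes, against 3.83 in the main analysis. The spread of a single gene therefore hardly entered these calls. With 2 libraries a group, differences of the size seen for Nfkbiz or Rela are within the intervals of the fit.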
